A study of Mus musculus with 4 samples.

Results

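The tetraspanin genes Cd37, Cd53, Cd63, Cd81, Cd82, Cd9 and Cd151 were followed through the dendritic cell states and the innate lymphoid cells of mouse mesenteric lymph nodes, as 7 of the 32289 gene rows of single-cell count matrices. The 7 genes were chosen with earlier results of these data known, and they were selected on measured levels: Cd37 and Cd81 had been seen higher in one cluster of hCD2+ cells, led by Nrg1, than in the Prdm16-rich cluster of the same library. That contrast is therefore described here and not tested. Tests were kept to other populations and to the hCD2- library. The Nrg1-led cluster recurs there in the same mice, so its Cd37 and Cd81 tests are not independent of that choice.

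The cells came from 12 untreated mice, 15 days old, that all carried the Gm38411-iCre-hCD2 allele and the R26 tdTomato reporter. The driver is the Gm38411 locus, and an R26 reporter of this kind labels a cell and its progeny once Cre has acted, so tdTomato can mark cells that no longer express the driver. CD3- B220- CD11c+ MHC-II+ tdTomato+ cells were sorted into an hCD2+ and an hCD2- fraction, and each fraction was sequenced as 1 library in which a hashtag antibody named the mouse. Mice without the Cre allele were not analysed here. Because a fraction is a single library, hCD2 status and library preparation cannot be told apart.

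After filtering, 7099 hCD2+ and 4762 hCD2- cells were kept, with a median of 17486 and 23846 unique molecular identifiers (UMIs, each 1 counted transcript molecule) per cell. A mouse contributed 365 to 897 cells in the hCD2+ library and 234 to 592 in the hCD2- library. Of the called barcodes, 20 occurred in both libraries. The sort did not leave dendritic cells alone: 3060 hCD2+ and 241 hCD2- cells were ILC3-like, and 365 and 969 were T cell-like by their markers. Levels are given in CPM, the UMI count of a gene scaled to the total UMIs summed for that mouse and population, for mice with at least 10 cells of it, and differences as log2 fold changes from edgeR's quasi-likelihood test with Benjamini-Hochberg adjustment over all genes tested. A gene is called where the adjusted p lies under 0.05. Of the 7 members, 6 passed the count filter of every comparison. Cd151, the partner of laminin-binding integrins, did not pass in any, and its mean level lay between 1.26 CPM in hCD2+ cDC2-like cells and 3.83 CPM in hCD2+ ILC3-like cells among the dendritic and ILC3-like classes with at least 6 mice.

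Tetraspanins are small membrane proteins that cross the bilayer repeatedly and organise integrins, immunoglobulin-superfamily proteins and major histocompatibility complex (MHC) class II molecules into surface microdomains. CD37 and CD53 are restricted largely to leukocytes and are known from B cell, T cell and dendritic cell adhesion and migration, whereas CD63 cycles through late endosomes and lysosomes and is widely used as a marker of exosomes. CD81 is part of the B cell co-receptor and, like CD9, binds integrins and immunoglobulin-superfamily partners at the surface. CD82 has been linked to the handling of MHC class II in antigen-presenting cells.

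In the GENCODE M21 annotation of GRCm38 (mm10), Cd37 lies on chromosome 7 from 45233632 to 45239115 on the minus strand and overlaps Tead2 on the plus strand. Cd53 lies on chromosome 3 from 106759921 to 106790149 (minus), and Cd63 on chromosome 10 from 128900989 to 128912822 (plus). Cd81 lies on chromosome 7 from 143052739 to 143067934 (plus), Cd82 on chromosome 2 from 93419111 to 93463140 (minus), Cd9 on chromosome 6 from 125460266 to 125494791 (minus) and Cd151 on chromosome 7 from 141467392 to 141471473 (plus). RefSeq also lists a pseudogene each for Cd63 and Cd9. How reads fitting a gene and its copy, or 2 overlapping genes, were assigned is not given in the sources used here.

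The promoters of Cd37, Cd53 and Cd63 are shown because these genes formed the clearest opposition in the data: Cd37 and Cd53 were low in CCR7 migratory dendritic cells, and Cd63 was high there. Each is the 250 bases before the RefSeq start in GRCm38.p6, 5' to 3' on the gene's strand, at chr7:45238840-45239089 (minus), chr3:106790150-106790399 (minus) and chr10:128909095-128909344 (plus). The Cd37 and Cd63 windows lie within the GENCODE gene spans given above, so these genes have annotated starts further upstream that are not shown. Capitals mark GAGGAA, a core bound by ETS-family factors, or its reverse complement TTCCTC.
Cd37: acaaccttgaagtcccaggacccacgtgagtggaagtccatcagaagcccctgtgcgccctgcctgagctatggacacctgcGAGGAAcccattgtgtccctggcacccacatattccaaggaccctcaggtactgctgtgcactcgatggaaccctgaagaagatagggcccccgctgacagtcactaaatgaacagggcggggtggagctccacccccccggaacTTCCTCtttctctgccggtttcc
Cd53: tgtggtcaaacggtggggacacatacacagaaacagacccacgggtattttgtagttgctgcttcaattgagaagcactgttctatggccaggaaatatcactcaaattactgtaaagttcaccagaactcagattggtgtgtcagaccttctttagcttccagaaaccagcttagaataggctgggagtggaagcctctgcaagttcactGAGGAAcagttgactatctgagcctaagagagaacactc
Cd63: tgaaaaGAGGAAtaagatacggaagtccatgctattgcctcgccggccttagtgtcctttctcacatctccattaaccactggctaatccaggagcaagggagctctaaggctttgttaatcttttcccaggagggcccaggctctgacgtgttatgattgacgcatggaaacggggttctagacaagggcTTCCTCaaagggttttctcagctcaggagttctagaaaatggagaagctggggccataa
The motif stood 168 and 23 bases before the Cd37 start, 39 bases before the Cd53 start and 244 and 59 bases before the Cd63 start. It occurred on either strand in 23.3% of the 32851 RefSeq promoter windows of this length, so its presence does not set these genes apart. The nuclear receptor motif AGGTCA (14% of all windows), an NF-kB motif (1.41%) and an interferon-response motif (2.98%) were searched on both strands too. None of them matched in these 3 windows, and the search bears on letters only.

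Among the hCD2+ cells, clusters 24 and 23 carried the markers of Prdm16 or Aire dendritic cells and are called Prdm16 or Aire DC-like. Cluster 24 (657 cells, 12 mice) had a mean of 3266 CPM of Prdm16 and 17.6 CPM of Aire. Cluster 23 (335 cells, 12 mice) had 593 CPM of Aire, 1826 CPM of Prdm16 and 1872 CPM of Ccr7, the chemokine receptor of migrating dendritic cells. Cluster 25 (223 cells, 8 mice) held Prdm16 at 1121 CPM beside Ccr7 at 2443 CPM and was left unnamed. It passed for 8 CCR7, 4 epithelial and 3 Prdm16 or Aire markers, and the rule that left it out was set after these were seen, while cluster 23, with 7 CCR7 markers beside 6 of its own, was named. Cluster 13 (249 cells, 10 mice), the Nrg1-led one, was left unnamed as well: it held Prdm16 at 155 CPM, Aire at 194 CPM and Trp63 at 264 CPM, and Ebf1, a B cell factor, at 377 CPM while Cd79a stayed under 1 CPM. Cluster numbers are labels without order.

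The tetraspanins divided these 4 clusters in different ways, which is given as a description. Cd37 was close to absent in cluster 24, at 0.440, 1.37 and 4.86 CPM in the lowest, median and highest mouse, and stood at 83.9, 157 and 186 CPM in cluster 13. Cd81 was at 0.767, 4.47 and 10.6 CPM in cluster 24 and at 88.0, 153 and 205 CPM in cluster 13. For both genes the lowest mouse of cluster 13 lay above the highest mouse of clusters 24, 23 and 25, where Cd37 reached at most 10.3 CPM and Cd81 at most 12.0 CPM. These are the values that brought the genes to attention. High levels were not particular to cluster 13: ILC3-like cells of the same library had means of 280 CPM of Cd37 and 202 CPM of Cd81.

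Cd63, the endosomal and exosomal tetraspanin, ran in another order. It was at 32.1, 70.1 and 92.3 CPM (lowest, median, highest mouse) in cluster 24, at 210, 315 and 445 CPM in cluster 13, at 655, 733 and 1014 CPM in cluster 25 and at 1065, 1320 and 1653 CPM in cluster 23. No mouse of one of these clusters overlapped with the next in that order. Cluster 24, with the least Cd63, also had the least Ccr7 (255 CPM, and 346 CPM in cluster 13), but cluster 25 had more Ccr7 and less Cd63 than cluster 23.

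Cd82 ran nearly opposite to Cd63 in these clusters. It was at 703, 766 and 878 CPM in cluster 24, 283, 337 and 374 CPM in cluster 13, 85.5, 171 and 241 CPM in cluster 23 and 27.5, 72.6 and 102 CPM in cluster 25. Clusters 24 and 13 were separated from each other and from the other 2, while clusters 23 and 25 overlapped. Cd53 was low throughout, at 36.2 ± 5.51 CPM (SD, n = 12) in cluster 24, 19.2 ± 15.0 CPM (n = 10) in cluster 13, 8.02 ± 8.38 CPM (n = 12) in cluster 23 and 7.75 ± 11 CPM (n = 8) in cluster 25, and all 4 overlapped. The overlap of cluster 25 with cluster 24 came through a single mouse at 34.1 CPM, with the next mouse of cluster 25 at 8.33 CPM. Cd9, an adhesion and fusion tetraspanin, was at 162 ± 29.2 CPM in cluster 24, 143 ± 73.7 CPM in cluster 23, 231 ± 41.1 CPM in cluster 25 and 54.1 ± 17.4 CPM in cluster 13. Cluster 13 was the one with less Cd9: its highest mouse, at 80.5 CPM, lay below the lowest of clusters 24 (117 CPM) and 25 (184 CPM) but above the lowest of cluster 23 (50.1 CPM).

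**Figure D1:**
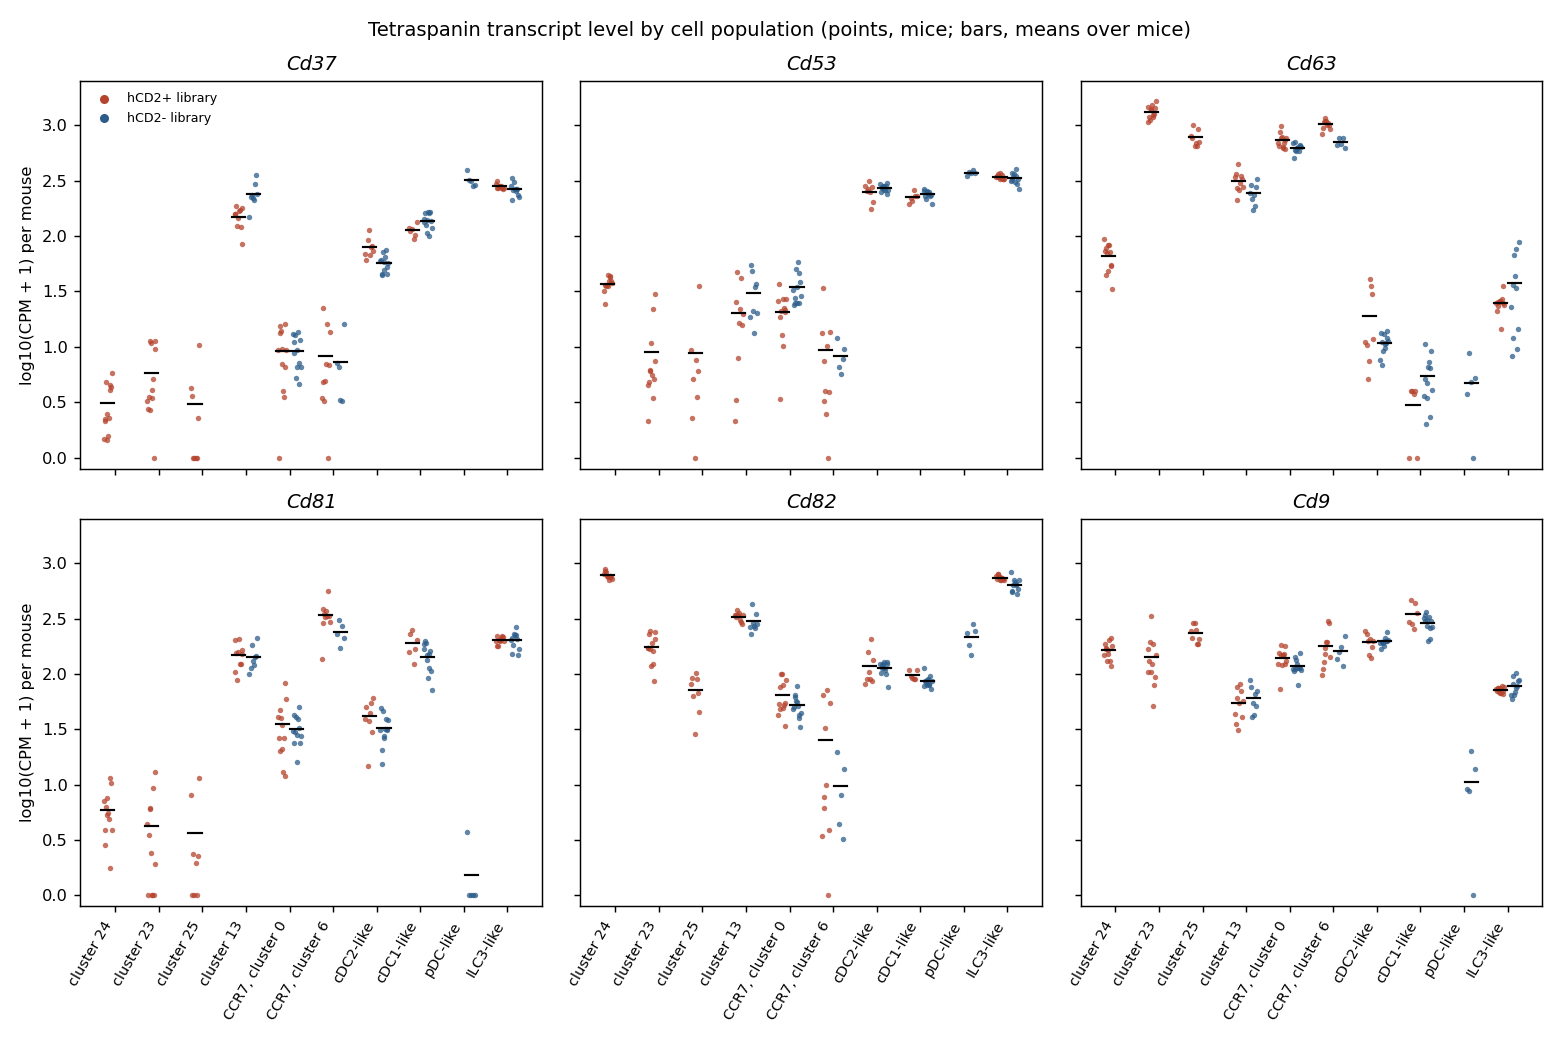
Transcript levels of 6 tetraspanins by population, as log10 of CPM plus 1 (y axis) for each mouse (points, red hCD2+ and blue hCD2- library) with the mean CPM over mice on the same scale (bars). Cd37 and Cd53 lie low in clusters 23 and 25 and in both CCR7 clusters, where Cd63 lies high, and Cd37 and Cd81 of cluster 13 lie far above those of cluster 24.

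Low values of these genes were read against free RNA, since droplets of 10 to 100 UMIs in the hCD2+ library held 95.4 CPM of Cd37, 218 CPM of Cd53 and 96.0 CPM of Cd81. An upper bound on what such RNA adds to a cluster was set from a short list of genes. Its T cell genes are foreign to dendritic cells, but its MHC class II genes are not. H2-Aa, for example, was at 5125 CPM in hCD2- cDC2-like cells. A bound can therefore be too wide where a class holds the listed transcripts itself. In cluster 23 the summed Cd37 (5.12 CPM), Cd81 (2.98 CPM) and Cd53 (7.26 CPM) lay under their bounds of 6.12, 6.16 and 14 CPM. These 3 genes could not be told apart from free RNA there. In cluster 24, Cd37 (1.93 CPM against a bound of 0.544) and Cd81 (5.35 CPM against 0.548) lay above it. In cluster 13 of the hCD2+ library Cd53 was at 18.5 CPM under a bound of 36.0 CPM, and in that of the hCD2- library at 29.6 CPM over a bound of 20.3 CPM.

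The shares of cells with at least 1 UMI, after cells were thinned to 5000 UMIs, gave the same picture. Cells with under 5000 UMIs were left out of the thinned shares. Cd37 was seen in 0.794% of cluster 24 cells (95% Wilson interval 0.339 to 1.84%, counting error only, as for all intervals here), in 0.958% (0.326 to 2.78%) of cluster 23 and in 46.3% (39.8 to 53.0%) of cluster 13. Cd81 was seen in 1.59% of cluster 24 and 45.9% of cluster 13, beside 2.04% (0.561 to 7.14%) in hCD2- plasmacytoid DC-like cells, where Cd81 lay under its free-RNA bound. Cd63 was seen in 16.7% of cluster 24, 93.3% of cluster 23, 88.8% of cluster 25 and 67.9% of cluster 13, beside 1.22% of hCD2- cDC1-like cells. Cd82 was seen in 96.0% (94.2 to 97.3%) of cluster 24 but 15.8% (11.5 to 21.3%) of cluster 25. Without thinning the Cd37 share of cluster 24 was 3.96% and that of cluster 13 was 73.5%.

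**Figure D2:**
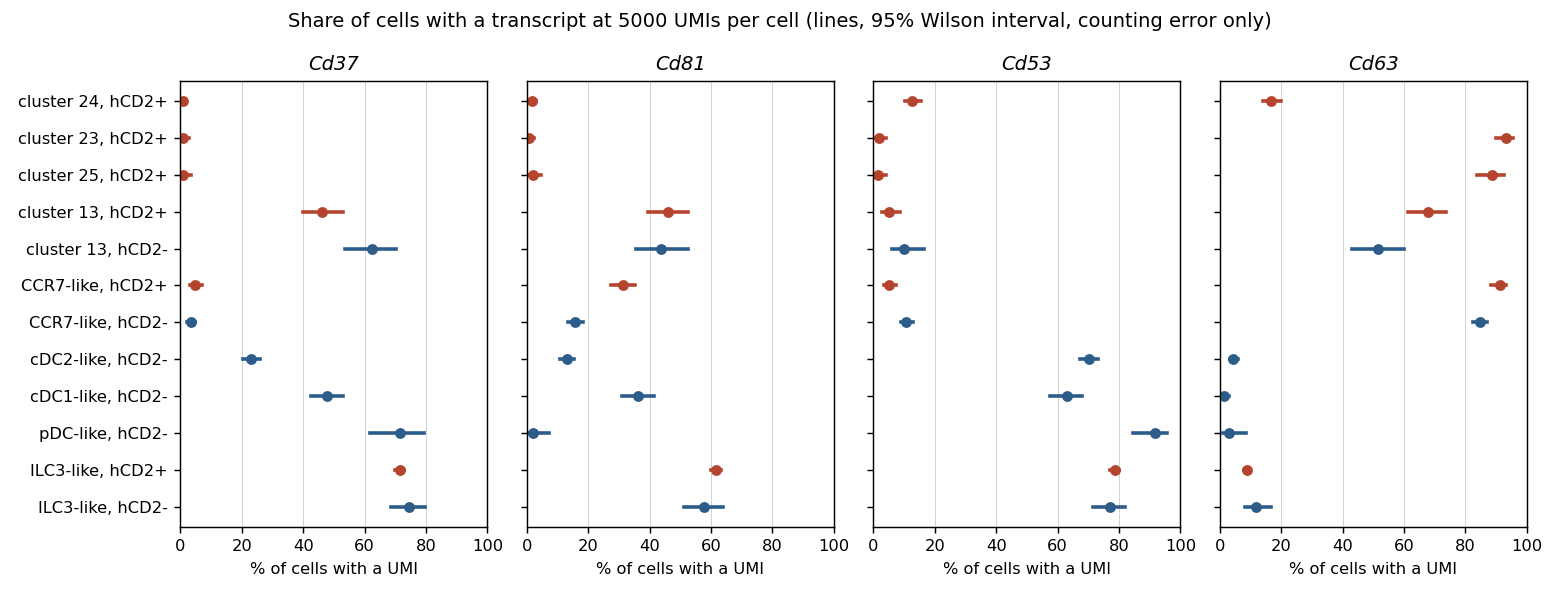
Share of cells with at least 1 UMI of Cd37, Cd81, Cd53 and Cd63 after thinning to 5000 UMIs per cell (x axis, percent) by population (y axis; red hCD2+, blue hCD2- library), with 95% Wilson intervals as lines. Cd37 is at 0.794% in cluster 24 and 46.3% in hCD2+ cluster 13, and Cd63 reaches 93.3% in cluster 23.

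Cluster 13 was also tested in the hCD2- library, with other populations than the contrast that chose the genes. It is the same cluster in the same mice, so for Cd37 and Cd81 this is not independent of that choice. Its hCD2- cells numbered 149. There were 8 mice with enough of them, and they were compared with hCD2- cDC2-like cells, the type 2 conventional dendritic cells (942 cells, 12 mice). This pair of populations was picked once the clusters had been seen. The hCD2- cDC2-like cells are the same in every comparison that uses them, so those comparisons are not independent. All 6 members tested differed, 4 higher (Cd37 and Cd81 among them) and 2 lower in cluster 13, and no member's mice overlapped between the populations. The share of all genes without such overlap was not counted. Of all 9548 genes tested 54.8% were called, 26.8% higher and 28.0% lower, so a call by itself was common.

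Cd37 was at 147, 229 and 356 CPM (lowest, median, highest mouse) in cluster 13 and at 43.7, 56.9 and 73.7 CPM in cDC2-like cells, a log2 difference of 2.15 ± 0.13 (SE, adjusted p = 3.09e-13). Cd53 went the other way, at 12.2, 26.9 and 53.7 CPM against 238, 274 and 302 CPM (-3.24 ± 0.15, adjusted p = 2.05e-15). The 2 leukocyte-restricted tetraspanins were thus split in cluster 13, one above and one below the cDC2-like level in 8 of 8 mice.

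Cd63 was at 243 ± 52.5 CPM (SD, n = 8) in cluster 13 and 9.78 ± 2.20 CPM (n = 12) in cDC2-like cells, a log2 difference of 4.69 ± 0.14 (adjusted p = 2.09e-19). Cd81 was at 98.2, 136 and 210 CPM against 14.4, 30.5 and 48.2 CPM (2.22 ± 0.18, adjusted p = 8.02e-11). Cd82 was higher too, at 297 ± 63.5 against 112 ± 15.2 CPM (1.44 ± 0.11), and Cd9 lower, at 60.2 ± 16.8 against 196 ± 17.7 CPM (-1.68 ± 0.12). T cell markers summed to 88.1 to 715 CPM (median 148) over the mice of cluster 13 and 13.5 to 148 CPM (median 56.5) over cDC2-like cells, with all 8 of the markers seen in both. Other marker lists differed without overlap. CCR7 markers summed to 2349 to 3557 CPM (median 2639) in cluster 13 and 270 to 550 CPM (median 437) in cDC2-like cells, cDC1 markers to 763 to 1223 CPM (median 859) and 109 to 209 CPM (median 130), and ILC3 markers to 773 to 959 CPM (median 901, 8 of 10 seen) and 300 to 498 CPM (median 437). B cell markers summed to 201 to 805 CPM (median 392, 4 of 6 seen) and 24.4 to 44.7 CPM (median 33.5), and monocyte markers to 28.6 to 104 CPM (median 42.3, 5 of 10 seen) and 409 to 766 CPM (median 492). The part of these lists in the differences was not tested.

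Against hCD2- CCR7 migratory DC-like cells (957 cells, 12 mice) cluster 13 differed in 5 of 6 members, 3 higher and 2 lower, beside 62.8% of 8806 genes called, 32.4% higher and 30.4% lower. Cd37 was 4.56 ± 0.19 higher on the log2 scale (241 ± 61.2 against 8.23 ± 3.50 CPM, adjusted p = 1.36e-16), and Cd82 was 2.39 ± 0.14 higher (297 against 44.2 ± 11.8 CPM). Cd63 was lower, by a log2 difference of -1.72 ± 0.10 (243 against 642 ± 39.2 CPM), as was Cd9 (-1.38 ± 0.13). Cd53 was at 29.9 ± 15.1 and 28.7 ± 8.71 CPM, and the difference of -0.34 ± 0.25 did not pass (adjusted p = 0.241). The Cd81 call (0.81 ± 0.20, adjusted p = 8.60e-04) hung on which CCR7 cells entered, as given below: it was -1.08 ± 0.18 against cluster 6 alone. Against cDC2-like cells and against CCR7 cells the same cluster 13 cells enter, so the 2 comparisons are not independent.

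Other tetraspanins and known partners of the family also differed in cluster 13. Of 24 other tetraspanin genes, called Tspan-type here, 8 could be tested against cDC2-like cells, with 5 higher and 2 lower: Tspan3 (2.22 ± 0.12), Tspan33 (1.62 ± 0.13) and Tspan5 (1.36 ± 0.20) among the higher, Tspan2 (-2.38 ± 0.30) and Tspan14 (-0.86 ± 0.17) the lower. Tspan5, Tspan14 and Tspan33 belong to the group that escorts the protease ADAM10. Of 15 partner genes tested 4 were higher and 10 lower, with the adhesion molecule Vcam1 (4.92 ± 0.26) and the laminin-binding integrin chain Itga6 (3.41 ± 0.23) up, and the MHC class II chains H2-Ab1 (-1.19 ± 0.06) and H2-Aa (-0.79 ± 0.06) down. Of 13 endosome and exosome genes 4 were higher, among them Lamp1, a lysosomal membrane protein (1.33 ± 0.10), and Rab27a, which docks secretory vesicles (2.22 ± 0.17), and 5 were lower. The median log2 difference was 0.60 for the Tspan-type genes, -0.79 for the partners, -0.02 for the endosomal genes and 1.79 for the 6 members, beside -0.01 over all genes. The member median includes Cd37 (2.15) and Cd81 (2.22), which were chosen for high levels in this cluster, so it cannot be read against the other medians. Of the remaining members Cd63 (4.69) and Cd82 (1.44) were higher and Cd53 (-3.24) and Cd9 (-1.68) lower. Against CCR7 cells the split of calls was 4 higher and 2 lower of 8 Tspan-type genes, 4 and 11 of 17 partners and 2 and 8 of 13 endosomal genes, with Tspan9 at 3.19 ± 0.33, Itga6 at 2.71 ± 0.16, the hyaluronan receptor Cd44 at -4.15 ± 0.27 and Tspan3 at -2.01 ± 0.11. Their medians were 0.26, -1.07 and -0.58, beside 0.23 for the members, Cd37 and Cd81 again included, and 0.03 over all genes.

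CCR7 migratory DC-like cells were next compared with cDC2-like cells of the hCD2- library, as populations present side by side. All 6 members differed in 12 of 12 mice, 2 higher and 4 lower in CCR7 cells, and 78.8% of the 9406 genes tested were called, 37.4% higher and 41.4% lower. Cd63 was at 562, 634 and 699 CPM (lowest, median, highest mouse) in CCR7 cells and at 5.86, 9.93 and 13 CPM in cDC2-like cells, a log2 difference of 6.44 ± 0.09 (adjusted p = 1.09e-29). Over all cDC2-like cells the summed Cd63 was 9.61 CPM, under a free-RNA bound of 12.6 CPM. Cd63 could not be told apart from free RNA in them, and the fold is tied to that low level. The share of cells with a Cd63 UMI at 5000 UMIs was 84.8% (82.3 to 87.0%) in CCR7 cells and 4.44% (3.27 to 6.01%) in cDC2-like cells.

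Both leukocyte-restricted members were lower in CCR7 cells, without overlap between mice. Cd37 was at 3.12, 7.68 and 13.7 CPM in CCR7 cells against 43.7, 56.9 and 73.7 CPM (-2.40 ± 0.16, adjusted p = 2.66e-14). Cd53 was at 19.3, 24.7 and 46.5 CPM against 238, 274 and 302 CPM (-2.88 ± 0.10, adjusted p = 2.21e-20). Cd82 was lower as well (44.2 ± 11.8 against 112 ± 15.2 CPM, -0.93 ± 0.11), and so, by less, was Cd9 (123 ± 15.5 against 196 ± 17.7 CPM, -0.28 ± 0.07, adjusted p = 2.82e-04). The ratio of the Cd9 CPM means was larger, at -0.68 on the log2 scale, because scaling by trimmed means (TMM) in the fit moved the median of all genes to -0.05 from -0.44 under library size alone.

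**Figure D3:**
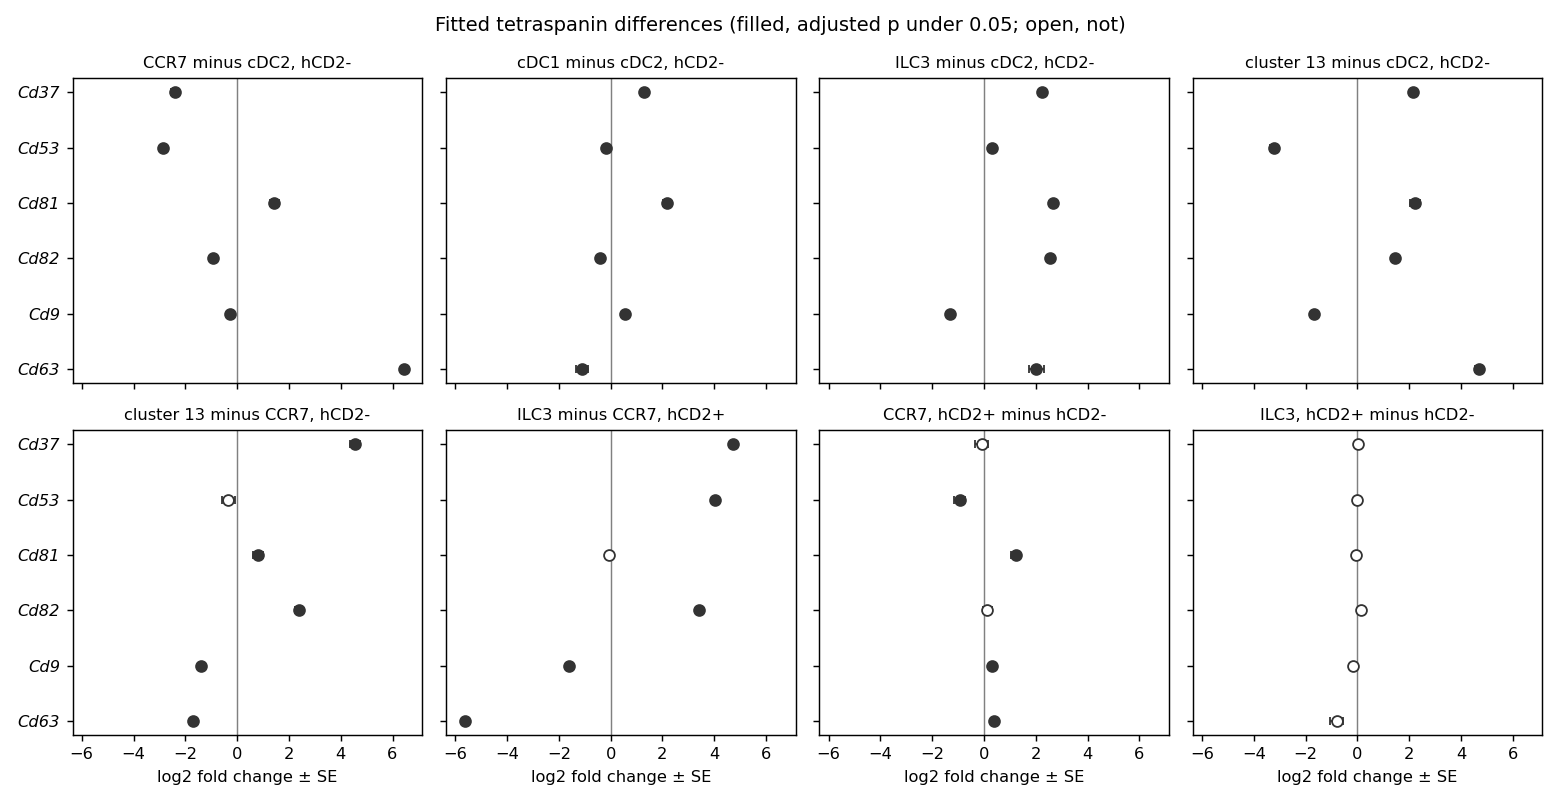
Fitted log2 fold changes of the 6 tested tetraspanins (x axis, points with SE as lines) in each of the 8 comparisons, filled where the adjusted p is under 0.05 and open where not. Cd63 is at 6.44 for CCR7 against cDC2-like cells, where Cd37 and Cd53 are at -2.40 and -2.88, and the 6 points of ILC3-like cells across the fractions are open.

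The Tspan-type genes were divided in this comparison too. Of 8 tested, Tspan3 (4.25 ± 0.10) and Tspan33 (2.20 ± 0.09) were higher and 5 were lower, with Tspan9 (-3.62 ± 0.16), Tspan2 (-1.77 ± 0.16) and Tspan14 (-0.75 ± 0.13) leading. All 16 partner genes tested were called, 11 higher and 5 lower. The integrin chains Itgb1 (2.07 ± 0.05) and Itga4 (1.17 ± 0.07) and the adhesion ligand Icam1 (1.72 ± 0.10) were higher, while the gut-homing integrin chain Itgb7 (-3.67 ± 0.13), Cd4 (-3.82 ± 0.17) and the phosphatase Ptprc (-1.30 ± 0.05) were lower. Of 13 endosome and exosome genes 6 were higher and 3 lower, with Lamp1 at 2.03 ± 0.07, Ap3b1, an adaptor for sorting to lysosomes, at 0.99 ± 0.05 and Sdcbp, the syntenin gene of exosome formation, at -0.96 ± 0.06. Median log2 differences were -0.60 for the members, -0.37 for the Tspan-type genes, 0.95 for the partners and -0.00 for the endosomal genes, beside -0.05 over all genes.

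Cd81 was the member that split the CCR7 class itself. In the whole class it was at 27.7, 64.3 and 108 CPM in the hCD2- library, 1.43 ± 0.18 above cDC2-like cells (adjusted p = 3.68e-08), with overlap between mice. The class consisted of cluster 0 (813 hCD2- and 332 hCD2+ cells) and cluster 6 (144 and 198). In cluster 0 the hCD2- mice lay at 14.9, 29.1 and 48.8 CPM, and in cluster 6 the 5 hCD2- mice had 170, 211, 228, 271 and 309 CPM, without overlap. In the hCD2+ library cluster 0 was at 10.9, 29.6 and 82.2 CPM and cluster 6 at 136, 335 and 557 CPM, again without overlap. Set against cDC2-like cells, cluster 0 alone did not pass (0.32 ± 0.17, adjusted p = 0.0986), and cluster 6 alone was 3.36 ± 0.19 higher (adjusted p = 1.51e-13).

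Cd82 and Cd53 took the opposite course between the 2 CCR7 clusters, given as a description since the clusters were drawn from these cells. In the hCD2- library Cd82 was at 51.5 ± 12.3 CPM in cluster 0 and 8.81 ± 6.86 CPM in cluster 6, and Cd53 at 33.7 ± 11.6 and 7.29 ± 2.46 CPM, neither with overlap. In the hCD2+ library Cd82 was at 63.9 ± 22.7 and 24.4 ± 27.8 CPM and Cd53 at 19.7 ± 8.85 and 8.32 ± 9.84 CPM in clusters 0 and 6, with overlapping mice for both. Cd63 was high in both clusters of the hCD2- library, at 626 ± 52.3 and 700 ± 65.6 CPM. The summed markers of type 1 conventional dendritic cells (cDC1) moved with Cd81: their sum over 10 genes was 780 to 1029 CPM (median 891) in hCD2- cluster 6 and 87.5 to 226 CPM (median 147) in cluster 0, with all 10 seen in both. The transcription factor Irf8 was at 596 and 109 CPM, Cadm1 at 209 and 19.2 CPM and Clec9a at 42.8 and 0.657 CPM. Irf8 and Cadm1 made up most of the cluster 6 sum, and by the naming rule cluster 6 passed for only 1 cDC1 marker. The 10 cDC2 markers summed to 49.7 to 127 CPM (median 95) in cluster 6, with 9 seen, and to 159 to 244 CPM (median 194) in cluster 0, with all 10 seen, but did not move as one: Sirpa was at 5.08 and 156 CPM and Clec12a at 61.2 and 2.35 CPM. Their part in the Cd81 levels was not tested.

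**Figure D4:**
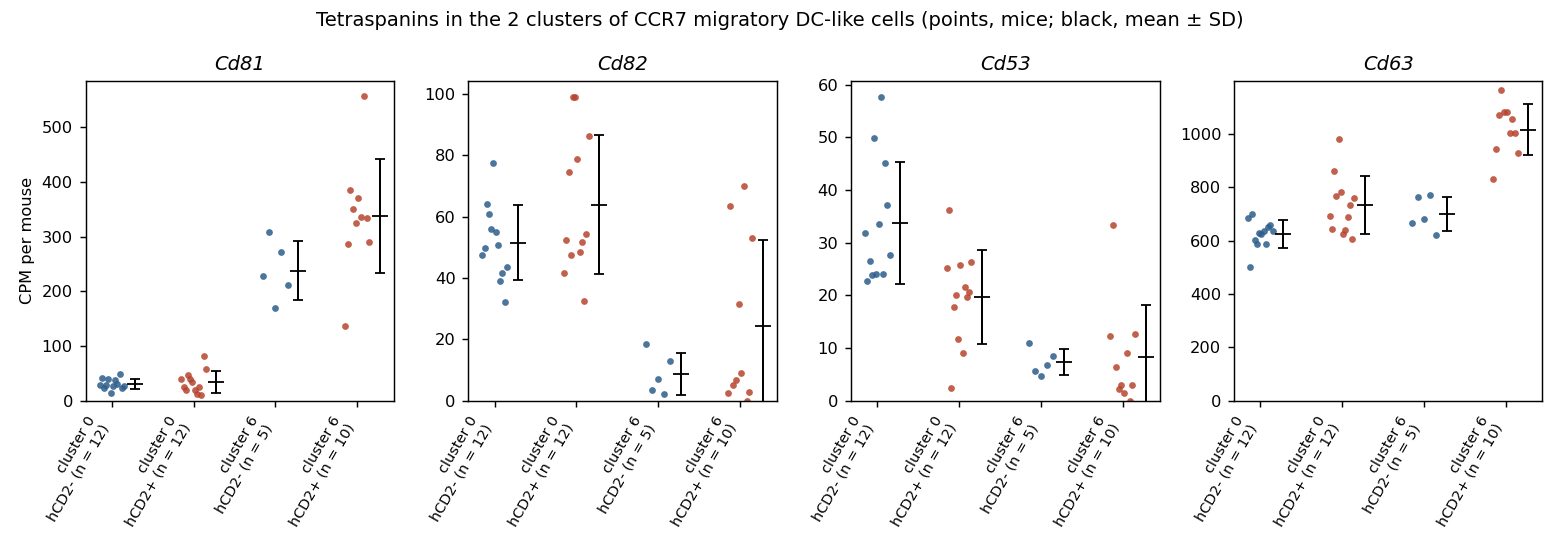
Levels in CPM (y axis, own scale in each panel) of Cd81, Cd82, Cd53 and Cd63 for each mouse (points) in the 2 clusters of CCR7 migratory DC-like cells by library, with mean ± SD in black (lower ends that would pass 0 are not drawn). In both libraries all mice of cluster 6 lie above all mice of cluster 0 for Cd81, and hCD2- mice of cluster 6 lie below those of cluster 0 for Cd82 and Cd53.

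Resident cDC1-like cells (332 hCD2- cells, 12 mice) also held more Cd81 than cDC2-like cells. Cd81 was at 70.3, 148 and 197 CPM against 14.4, 30.5 and 48.2 CPM, a log2 difference of 2.18 ± 0.17 (adjusted p = 1.11e-11), without overlap. Cd37 was higher as well, at 99.8, 137 and 164 CPM against 43.7, 56.9 and 73.7 CPM (1.30 ± 0.10, adjusted p = 4.18e-12), and Cd9 was at 287 ± 50.2 against 196 ± 17.7 CPM (0.57 ± 0.09). Cd63 (4.44 ± 2.63 against 9.78 ± 2.20 CPM, -1.12 ± 0.23), Cd82 (-0.40 ± 0.08) and Cd53 (237 ± 19.9 against 271 ± 18.2 CPM, -0.18 ± 0.05, adjusted p = 0.00462) were lower. All 6 members were called, 3 in each direction, beside 57.2% of 9148 genes, 29.2% higher and 28.0% lower. For Cd63 both classes lay under their free-RNA bounds, 4.36 CPM under 89.0 CPM in cDC1-like cells. The call therefore concerns low levels that could not be told apart from free RNA. In the hCD2+ library, without a test, cDC1-like cells (6 mice) had 187 ± 47.4 CPM of Cd81 and 112 ± 13.2 CPM of Cd37, and cDC2-like cells (8 mice) 40.5 ± 14.6 and 78.5 ± 16.7 CPM. Over all cells of these classes Cd37 of cDC1-like cells (117 CPM, bound 126 CPM) and Cd81 of cDC2-like cells (40.3 CPM, bound 41.2 CPM) did not exceed their free-RNA bounds in that library. The Cd37 bound lay above the Cd37 level of the droplets themselves, so it set no limit there.

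T cell markers moved with the cDC1-like class: all 8 were seen, and they summed to 274 to 916 CPM (median 604) against 13.5 to 148 CPM (median 56.5) in cDC2-like cells. They lay mainly in cluster 16 of the class (939 to 1215 CPM) and less in cluster 15 (80.3 to 183 CPM). With cluster 15 alone (9 mice) Cd81 (2.62 ± 0.20), Cd37 (1.47 ± 0.11) and Cd9 (0.81 ± 0.11) were as far above cDC2-like cells as before, Cd82 (-0.23 ± 0.10) and Cd53 (-0.14 ± 0.06, adjusted p = 0.0491) stayed lower, and Cd63 did not pass (-0.51 ± 0.23, adjusted p = 0.0636). T cell-like cells of the hCD2- library themselves had 154 ± 12.2 CPM of Cd37 and 449 ± 44.6 CPM of Cd53. Of 8 Tspan-type genes tested 1 was higher, Tspan33 (0.94 ± 0.08), and 6 were lower, led by Tspan2 (-1.90 ± 0.13), Tspan9 (-2.18 ± 0.17) and Tspan13 (-0.96 ± 0.08). Of 15 partners 9 were higher, among them the growth factor receptor Met (5.84 ± 0.24) and the integrin chain Itga3 (4.39 ± 0.38), and 6 lower. Of 13 endosomal genes 5 were higher and 4 lower, with Lamp1 at -1.34 ± 0.07. The medians were 0.19 for the members, -0.76 for the Tspan-type genes, 0.50 for the partners and 0.13 for the endosomal genes, beside 0.01 over all genes.

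Plasmacytoid DC-like cells (104 hCD2- cells, 5 mice) held Cd37 and Cd53 but little Cd81, Cd9 or Cd63, and were described without a test. Cd37 was at 319 ± 44.6 CPM (SD, n = 5) and Cd53 at 371 ± 17.4 CPM, while Cd9 was at 9.60 ± 7.09 CPM and Cd63 at 3.72 ± 2.81 CPM. Cd81 had no UMI in 4 of the 5 mice. Over all 104 cells Cd81 (5.13 CPM), Cd9 (10.6 CPM) and Cd63 (3.94 CPM) lay under free-RNA bounds of 10.9, 23.4 and 37.0 CPM. None of the 3 could be told apart from free RNA.

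ILC3-like cells, innate lymphoid cells by their markers, held 5 of the 6 tested members above cDC2-like cells within the hCD2- library (11 and 12 mice). Cd82 was at 523, 636 and 835 CPM against 75.0, 115 and 127 CPM (2.53 ± 0.09, adjusted p = 1.35e-20), Cd81 at 147, 205 and 262 CPM against 14.4, 30.5 and 48.2 CPM (2.68 ± 0.15) and Cd37 at 210, 264 and 335 CPM against 43.7, 56.9 and 73.7 CPM (2.24 ± 0.10), each without overlap. Cd63 (36.5 ± 28.2 against 9.78 ± 2.20 CPM, 2.01 ± 0.29) and Cd53 (331 ± 38.1 against 271 ± 18.2 CPM, 0.30 ± 0.06) were higher with overlapping mice, and Cd9 was lower (77.4 ± 13.7 against 196 CPM, -1.33 ± 0.09). The Cd53 call was lost without the filter on low counts (0.16 ± 0.07, adjusted p = 0.0564). Of 8775 genes tested 67.7% were called, 33.8% higher and 33.9% lower. T cell markers summed to 416 to 813 CPM in ILC3-like cells, mostly as Lef1 (285 CPM) and Trbc2 (230 CPM), with Cd3e at 1.99 CPM. Cd4 (2.01 ± 0.13), Itga6 (2.0 ± 0.27), Rab27a (2.15 ± 0.14) and Tspan32, a haematopoietic tetraspanin (5.11 ± 0.32), were higher, and Tspan9 (-4.12 ± 0.25), Tspan2 (-2.76 ± 0.29), Ptprc (-1.47 ± 0.06) and H2-Ab1 (-1.28 ± 0.06) lower. In counts, 3 of 9 Tspan-type genes, 2 of 13 partners and 4 of 13 endosomal genes were higher, and 4, 8 and 3 lower, with medians of 0.18, -0.44 and 0.08, beside 2.13 for the members and -0.00 over all genes. Cluster 13 had differed from the same cDC2-like cells in the same direction for every tested member but Cd53 (-3.24 ± 0.15).

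In the hCD2+ library ILC3-like cells (3060 cells) were compared with CCR7 migratory DC-like cells (530 cells), 12 mice in each. Of the 6 members 3 were higher and 2 lower in ILC3-like cells, beside 82.3% of 10227 genes called, 44.4% higher and 37.9% lower. Cd37 was at 264, 276 and 315 CPM against 1.62, 8.11 and 13.4 CPM (4.71 ± 0.11, adjusted p = 1.48e-25), Cd53 at 324, 339 and 370 CPM against 2.98, 13.6 and 35.1 CPM (4.05 ± 0.13) and Cd82 at 697, 732 and 791 CPM against 26.4, 47.6 and 75.3 CPM (3.42 ± 0.14). Cd63 was lower, at 13.5, 24.1 and 34.1 CPM against 735, 842 and 1049 CPM (-5.63 ± 0.11, adjusted p = 1.55e-27), as was Cd9 (70.5 ± 3.73 against 153 ± 34.3 CPM, -1.59 ± 0.09). None of these 5 overlapped between the populations, but the share of all genes without overlap was not counted. Over all CCR7 cells of this library Cd37 (7.52 CPM) and Cd53 (14.5 CPM) lay not far above free-RNA bounds of 4.77 and 10.9 CPM.

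For Cd81 no direction held. ILC3-like cells were at 202 ± 14.5 CPM and CCR7 cells at 152 ± 44.2 CPM, and ILC3-like cells were higher in 11 of 12 mice by CPM, but the fitted difference was -0.07 ± 0.12 (adjusted p = 0.597). Scaling by library size alone gave 0.41 ± 0.12 (adjusted p = 0.00205). Against cluster 0 it was 2.02 ± 0.16 and against cluster 6 -1.19 ± 0.13, both called, and with cluster 25 added to the CCR7 class it was 0.53 ± 0.11 (adjusted p = 1.10e-04). In this comparison 7 of 10 Tspan-type genes were higher, led by Tspan32 (5.51 ± 0.21) and Tspan4 (5.08 ± 0.34), and 2 lower, Tspan3 (-4.55 ± 0.09) and Tspan33 (-5.63 ± 0.12). Of 16 partners 4 were higher and 11 lower, with Itgb7 at 3.66 ± 0.14, Itgb1 at -3.02 ± 0.06 and Icam1 at -1.89 ± 0.08, and of 13 endosomal genes 5 were higher and 8 lower, with Rab27a at 2.62 ± 0.13 and Lamp1 at -2.19 ± 0.05. The medians were 1.68 for the members, 0.71, -1.24 and -0.28 for the lists, and 0.10 over all genes, which became 0.58 under library size alone.

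The 2 fractions were compared within a class. In CCR7 migratory DC-like cells 4 of 6 members differed between hCD2+ and hCD2- cells (12 mice each), 3 higher and 1 lower in hCD2+, beside 17.7% of 8254 genes called, 9.21% higher and 8.49% lower. Cd63 was at 735, 842 and 1049 CPM in hCD2+ against 562, 634 and 699 CPM in hCD2- cells (0.40 ± 0.06, adjusted p = 1.71e-05), higher in 12 of 12 mice and without overlap. Cd53 was at 14.8 ± 8.01 against 28.7 ± 8.71 CPM (-0.94 ± 0.20, adjusted p = 0.00152), lower in 11 of 12 mice. Cd81 (152 ± 44.2 against 65.1 ± 21.2 CPM, 1.22 ± 0.18, adjusted p = 1.41e-05) and Cd9 (153 ± 34.3 against 123 ± 15.5 CPM, 0.30 ± 0.10, adjusted p = 0.0383) were higher, and Cd37 (-0.09 ± 0.24, adjusted p = 0.857) and Cd82 (0.12 ± 0.17, adjusted p = 0.709) did not pass.

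The make-up of the class differed between the fractions: cluster 6, the one with much Cd81, gave 198 of 530 hCD2+ cells and 144 of 957 hCD2- cells. Within cluster 0 the Cd81 difference was 0.26 ± 0.23 (adjusted p = 0.530) and within cluster 6 it was 0.46 ± 0.22 (adjusted p = 0.261), neither called. Both estimates were positive, and each cluster held fewer cells than the whole class, with 5 hCD2- mice in cluster 6. The part of the class make-up in the Cd81 call was not tested. Cd63 passed within cluster 0 (0.24 ± 0.07, adjusted p = 0.0410) and within cluster 6 (0.50 ± 0.11, adjusted p = 0.0168, 10 and 5 mice). Cd53 passed within cluster 0 (-0.70 ± 0.21, adjusted p = 0.0360) and was not tested in cluster 6, where it fell under the count filter. Cd9 passed neither within cluster 0 (0.28 ± 0.11, adjusted p = 0.0995) nor within cluster 6 (0.10 ± 0.24, adjusted p = 0.858), and over the whole class its call was lost without the filter (0.29 ± 0.10, adjusted p = 0.0832) and after thinning (0.12 ± 0.14, adjusted p = 0.61). With cluster 25 in the class Cd81 was at 0.63 ± 0.17 (adjusted p = 0.00493), and 2849 genes were called in place of 1461. Of the lists, 0 of 7 Tspan-type genes were higher and 1 lower (Tspan33, -0.20 ± 0.07), 3 of 15 partners higher and 4 lower (Met at 1.33 ± 0.26, the tetraspanin partner Igsf8 at 0.71 ± 0.13, H2-Aa at -0.43 ± 0.08), and 2 of 13 endosomal genes higher (Sdcbp at 0.29 ± 0.08 and Hgs at 0.38 ± 0.12). Their medians were -0.22, -0.15 and 0.10, beside 0.21 for the members and -0.00 over all genes.

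In ILC3-like cells none of the 6 members was called between the fractions by edgeR (12 hCD2+ and 11 hCD2- mice), 3 of them at an unadjusted p under 0.05, while DESeq2 called 1, Cd82. Of 9972 genes 4.32% were called, 1.64% higher and 2.68% lower. Cd82 was at 738 ± 32.3 CPM in hCD2+ and 641 ± 88.4 CPM in hCD2- cells (0.15 ± 0.06, adjusted p = 0.15), Cd63 at 23.8 ± 4.64 and 36.5 ± 28.2 CPM (-0.80 ± 0.26, adjusted p = 0.0761) and Cd9 at 70.5 ± 3.73 and 77.4 ± 13.7 CPM (-0.19 ± 0.08, adjusted p = 0.166). Cd37 (280 ± 14 and 264 ± 36.1 CPM), Cd53 (341 ± 15.9 and 331 ± 38.1 CPM) and Cd81 (202 ± 14.5 and 200 ± 35.3 CPM) were within 0.05 of each other on the fitted log2 scale, with SEs of 0.05 to 0.08. Clusters 8, 9 and 10 held most of the class in both fractions. The Cd63 spread in hCD2- ILC3-like cells, from 7.29 to 86.8 CPM, was wide beside 13.5 to 34.1 CPM in hCD2+ cells. With the mouse as a block 277 genes were called in place of 431, again with none of the members. Among the lists 1 of 10 Tspan-type genes was called, Tspan14 (0.40 ± 0.09), and 0 of 14 partners and 0 of 13 endosomal genes, with medians of 0.01, -0.00 and -0.04 beside -0.03 for the members and -0.02 over all genes.

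Over 14 combinations of named class and library with at least 3 mice, T cell-, NK- and monocyte-like cells included and the unnamed clusters 13 and 25 left out, a description without a test since these share libraries and depth, the mean log2 levels of Cd37 and Cd53 ran together (Pearson r = 0.931) and both ran against Cd63 (r = -0.793 and -0.815). Cluster 13 went against this, with hCD2- means of 241 CPM for Cd37 and 243 CPM for Cd63 but 29.9 CPM for Cd53. Cd81 and Cd9 had r = 0.535, and Cd82 and Cd151 r = 0.550. Among 6373 genes the most alike to Cd37 were Tnfaip8l2 (0.938) and Cd53, to Cd53 Rcc2, Zfp36l2 (both 0.970) and Iqgap2 (0.969), and to Cd63 Traf3 (0.944), Cflar and Anxa3 (both 0.940). Tiam1 was closest to Cd81 (0.876), Whrn to Cd82 (0.959), Prkar2a to Cd9 (0.963) and Pja2 to Cd151 (0.824).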

How the data were processed

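Whole transcriptomes were read as UMI counts from 2 Chromium 3' v4 libraries, hCD2+ and hCD2-, with hashtag counts per barcode. The count matrices were deposited as raw barcodes by gene, made by the authors with Cell Ranger 8.0.1 on mm10, per the submitters' processing notes. The assignment tables deposited by the authors, from Cell Ranger's multiplexing step per the submitters' processing notes, gave each called cell's hashtag state with its posterior probability as a fraction, and so its mouse. Barcodes without exactly 1 hashtag, with under 500 genes or above 10% mitochondrial UMIs were dropped. The hashtags removed 806 and 465 multiplets, 295 and 168 blank and 285 and 63 unassigned cells (hCD2+, hCD2-). No further doublet caller was run.

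Cells were clustered with scanpy 1.11.5 (2000 variable genes, 30 components, 15 neighbours, Leiden resolution 1.0). The members, the other tetraspanins and the partner and endosome lists were left out of those genes, though genes correlated with them were in. A cluster was named by at least 3 markers of a list, higher by 2-fold and seen in 10% of its cells, a rule set after clustering. Since CCR7 marks a state, another list with 5 or more markers took the name over it, and a CCR7 cluster with 3 or more markers of another list was left unnamed. Tests used edgeR 4.0.16 on summed counts per mouse (filterByExpr, TMM, quasi-likelihood, R 4.3.3), only the 2 arms of a comparison entering a fit. Alternatives were DESeq2 1.42.0, no filter, library size alone, a replicate block, thinning to 5000 UMIs, minima of 5 and 20 cells, resolution 2.0, leaving out the 5% of cells with most UMIs, and single clusters. The procedure was tested on simulated counts in which few genes changed, evenly up and down. Between classes most genes were called, so the simulation does not check the scaling there.

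The members and lists were chosen with earlier results of these data known. Named in the text are the members, up to 3 listed genes per direction with the smallest adjusted p, and the genes most alike to a member. Clec7a had no matching row, so 22 of 23 partner genes were used. The same hashtag marks the same mouse in both libraries: over 8810 genes, deviations of equal hashtags correlated at 0.0537 to 0.524 (mean 0.357, above 0.1 in 11 of 12), and those of unequal hashtags at a mean of -0.0322. A mouse's summed UMIs ran from 7269488 to 17966298 in the hCD2+ and from 5914558 to 16238728 in the hCD2- library. Promoter windows came from a RefSeq table of GRCm38.p6, which held all 7 members. Some marker genes are not reported here.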

Additional observations from a re-analysis of the deposited data

Results flagged for a closer look

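Within populations of 4 to 10 mice, a single mouse stood apart from the rest by Dixon's ratio in 6 of the 56 groups of values examined. That rule flags about 1 in 20 groups of independent, normally distributed values. Several of the flagged values were low counts from few cells, so the 6 cannot be read against that rate. In hCD2+ cluster 25 the same mouse, with 25 cells, was highest for Cd37 (9.41 CPM, next 3.21 CPM) and for Cd53 (34.1 CPM, next 8.33 CPM) among 8 mice. In hCD2+ cluster 6 a mouse with 13 cells had 33.3 CPM of Cd53, next 12.6 CPM, among 10 mice. In hCD2- plasmacytoid DC-like cells a mouse with 14 cells had 2.72 CPM of Cd81 and the other 4 had 0. Cd151 stood apart at 4.03 CPM in 1 of 8 mice in hCD2+ cDC2-like cells (next 1.89 CPM, 16 cells) and at 7.16 CPM in 1 of 8 mice in hCD2- cluster 13 (next 3.95 CPM, 10 cells).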

How the results depend on the processing

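Among the refitted member differences 6 reversed, 10 lost their call, 5 gained one and the rest kept their call. Those that reversed were Cd9 in CCR7 against cDC2-like cells with cluster 6 alone (0.13), Cd81 in ILC3-like against CCR7 cells with cluster 0 alone (2.02), with cluster 25 in the class (0.53), under library size alone (0.41) and after thinning (0.36), and Cd81 in cluster 13 against CCR7 cells with cluster 6 alone (-1.08). Uncalled values near 0 also changed sign. The count of members called moved from 0 to 1 for ILC3-like cells between fractions under DESeq2, library size alone, thinning and at least 20 cells per mouse (Cd63 in the last, -1.06, and Cd82 in the others), and from 4 for CCR7 cells between fractions to 2 in cluster 0, 1 in cluster 6 and 2 after thinning. Cd9 in that comparison was not called without the filter (0.29), after thinning (0.12) or within either cluster, and Cd53 in cDC1-like cells not after thinning (-0.18). The cause was not tested. The mouse as a replicate block changed no member's call (6, 6, 6, 5, 0, 4, 6 and 5 called over the 8 comparisons). Library size alone moved the share of called genes that were higher from 47.4 to 27.9% (CCR7 against cDC2), 54.0 to 71.8% (ILC3 against CCR7), 51.6 to 72.4% (cluster 13 against CCR7) and 38.1 to 64.1% (ILC3 fractions, 57.9% without a filter). Thinning, which leaves fewer UMIs, lowered the genes called to 3615 from 7410, 2051 from 5234, 2510 from 5940, 5149 from 8418, 2026 from 5229, 2027 from 5533, 151 from 431 (ILC3 fractions) and 587 from 1461 (CCR7 fractions). ILC3 fractions gave 718 with DESeq2 and 222 at resolution 2.0, and CCR7 fractions 567, 189 and 2849 with cluster 0 alone, cluster 6 alone and cluster 25 added. The planned tests of Prdm16 or Aire DC-like cells in the hCD2- library were not run, since 14 cells left no mouse with 10. At least 20 cells per mouse left no value for cluster 13, and no arm of the 8 comparisons had under 8 mice, so no mouse was left out in turn. Arms of 5 mice occurred among the alternatives (hCD2- cluster 6 alone, and hCD2- ILC3-like cells at 20 cells per mouse), which were not refitted without each mouse. Shares of cells with a UMI moved with depth in 117 of 126 recomputed values.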
